A study of Rattus norvegicus with 8 samples.

Results

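The fibrillar collagens are the chains that build the banded collagen fibrils of connective tissue. The group described here was 9 genes, chosen by name from the 19239 rows of the array table, and each of the 9 was found as a row named by its Entrez gene identifier. Affymetrix rat gene arrays were used to measure messenger RNA of the saphenous artery, a leg vessel with a muscular wall, in male Wistar rats. The adult group was 4 samples from animals of 2 to 3 months, each sample the 2 arteries of 1 animal, and the young group was 4 samples from animals of 10 to 12 days, each sample 4 arteries pooled from 2 animals. The animals were untreated and the labels name no allele.

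A fibrillar collagen molecule is a rope of wound chains. The chains are made as procollagens, are hydroxylated and folded in the endoplasmic reticulum, lose their end pieces outside the cell and are then packed and crosslinked into fibrils. Col1a1 and Col1a2 encode the chains of type I collagen and Col3a1 that of type III, the main fibril formers of the artery wall, where smooth muscle cells and adventitial fibroblasts make them. Col5a1, Col5a2 and Col5a3 encode type V chains, which lie inside type I fibrils and limit their width. Col2a1, Col11a1 and Col11a2 are best known from the fibrils of cartilage. Col11a1 chains are also found in molecules together with type V chains.

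Of the 9 genes, 8 were lower in arteries of adult rats, 0 were higher and 1, Col11a2, did not pass the test (limma, Benjamini-Hochberg adjusted over all rows, adjusted p below 0.01, two-sided). Over all rows, 16.01% were called lower, 16.7% higher and 32.7% in either direction. In the 8 genes every adult value lay below every young value, which was the case in 21.5% of all rows. Col5a2, Col5a1 and Col3a1 differed by at least 2-fold, and 1.32% of all rows were lower by that much. At least 1.5-fold was reached by 5 of the 9, against 3.70% of all rows, and an adjusted p below 0.05 by the same 8, against 21.7%. The median difference of the 9 genes was -0.66 on the log2 scale, and that of all rows was 0.0024. All differences here are adult minus young on the log2 scale, with the standard error of the limma fit and n = 4 arrays per age.

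**Figure D1:**
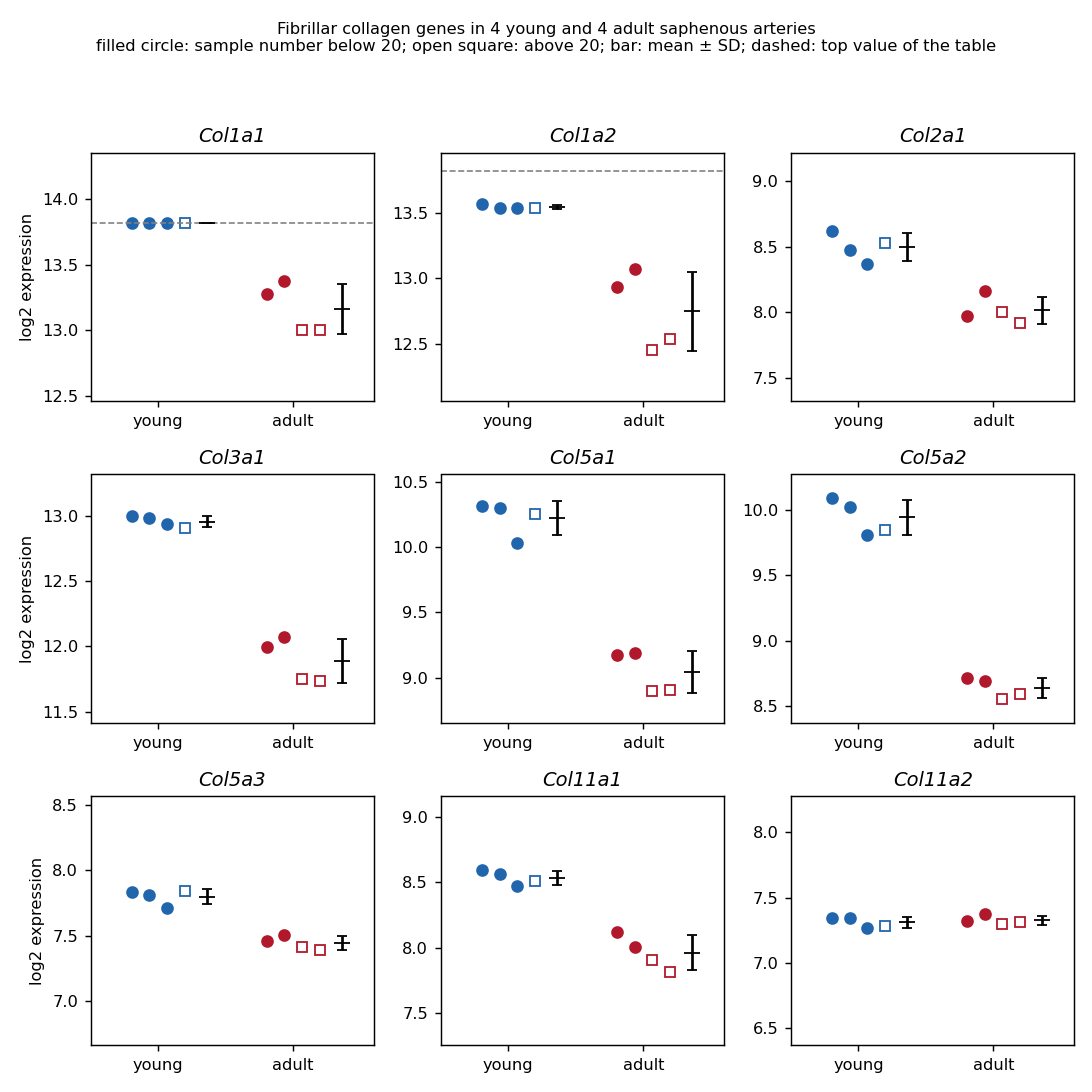
Log2 expression of the 9 fibrillar collagen genes on each array (vertical axis, each panel spanning the same range of log2 units) in young and adult arteries, with the mean and SD of each age beside the points and the top value of the table as a dashed line. In all panels but that of Col11a2 the 4 adult points lie below the 4 young points, and Col1a1 lies on the top value in every young sample.

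The arrays were quantile normalised, so each held the same set of values, from 6.8 to 13.82 with a median of 7.29. A gene that ranks first on an array therefore takes the value 13.82 whatever its amount, and genes near the lowest value have compressed differences. Correlations between arrays were 0.991 to 0.997 within an age and 0.933 to 0.949 between ages. The number of arrays limits the precision. Of the smooth muscle markers fixed to check the tissue, 6 of 7 measured were higher in adult arteries and 0 lower, and their mean level was 12.2 to 12.4 in adult and 11.6 to 11.7 in young samples. Of 9 fibroblast markers, Dcn among them, 5 were lower and 3 higher, with a mean of 10.6 to 10.7 in adult and 10.7 to 10.8 in young samples. Of 7 endothelial markers 4 were lower and 0 higher (8.01 to 8.44 against 8.94 to 9.52), and of 7 leukocyte markers 5 were higher and 0 lower (7.94 to 8.34 against 7.33 to 7.42). Of 12 skeletal muscle markers 1 was lower and 0 higher (7.55 to 7.62 against 7.60 to 8.15). Their median difference was -0.33, and their mean level spread more widely among young samples than among adult ones. Of 6 adipocyte markers 0 were called (7.09 to 7.20 against 7.18 to 7.45), and of 6 Schwann cell markers 1 was lower (7.95 to 7.98 against 8.14 to 8.29). Fewer cells of a type and less RNA per cell cannot be told apart in these samples, and the part of the markers in the collagen values was not tested.

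The promoters of 5 members are shown, 4 of genes called lower and 1 of Col11a2, which was not called. The signal of Col11a2 lay close to the median of the table (means 7.33 in adult and 7.31 in young samples), and whether it stood above background was not tested. RefSeq sequences of the GRCr8 assembly were available for 6 of the 9 genes as windows that begin 250 bases before the annotated start; Col1a1, Col2a1 and Col3a1 were not among them. The 250 bases were searched on both strands for the CCAAT box (CCAAT), a common element of collagen promoters, for the GC box (GGGCGG) and, on the gene's strand, for the TATA box (TATAAA). Capitals mark the matches, and the strand printed is that of the gene. Col1a2 lies at chr4:33518307-33518416 on the plus strand (bases 250 to 141 before the start), Col5a2 at chr9:55090152-55090401 on the minus strand, Col5a3 at chr8:27625949-27626198 on the minus strand, Col11a1 at chr2:204508886-204509135 on the plus strand and Col11a2 at chr20:4817649-4817898 on the minus strand.
Col1a2: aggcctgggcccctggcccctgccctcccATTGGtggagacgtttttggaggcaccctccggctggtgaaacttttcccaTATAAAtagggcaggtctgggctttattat
Col5a2: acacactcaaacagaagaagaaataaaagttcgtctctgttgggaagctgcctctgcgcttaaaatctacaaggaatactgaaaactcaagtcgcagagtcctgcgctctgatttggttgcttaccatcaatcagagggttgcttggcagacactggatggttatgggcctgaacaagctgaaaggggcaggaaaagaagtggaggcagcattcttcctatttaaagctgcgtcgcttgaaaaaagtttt
Col5a3: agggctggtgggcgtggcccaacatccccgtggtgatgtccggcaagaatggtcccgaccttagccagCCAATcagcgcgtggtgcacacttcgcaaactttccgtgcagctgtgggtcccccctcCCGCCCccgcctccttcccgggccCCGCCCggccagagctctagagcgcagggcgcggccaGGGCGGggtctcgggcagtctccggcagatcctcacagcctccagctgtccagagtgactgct
Col11a1: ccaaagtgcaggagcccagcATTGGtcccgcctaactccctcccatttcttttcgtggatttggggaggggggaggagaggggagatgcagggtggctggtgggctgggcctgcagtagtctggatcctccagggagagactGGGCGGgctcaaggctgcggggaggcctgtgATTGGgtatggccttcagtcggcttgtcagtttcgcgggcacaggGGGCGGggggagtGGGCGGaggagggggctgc
Col11a2: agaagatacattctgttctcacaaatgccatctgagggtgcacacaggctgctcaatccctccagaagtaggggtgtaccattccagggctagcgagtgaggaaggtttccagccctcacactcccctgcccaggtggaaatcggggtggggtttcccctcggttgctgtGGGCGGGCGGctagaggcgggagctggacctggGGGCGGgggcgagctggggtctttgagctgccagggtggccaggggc

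A CCAAT box was found in 3 of the 6 windows, those of Col1a2, Col5a3 and Col11a1, and in 34.0% of all 33469 windows. A GC box was found in 4, those of Col5a1, Col5a3, Col11a1 and Col11a2, and in 30.5% of all windows. In the Col11a2 window 2 of its 3 GC boxes overlap. Only Col1a2 held a TATA box, 170 bases before the annotated start, and 8.06% of all windows held it. The window of Col5a2, the member with the largest difference, held none of the 3 motifs. The window of Col5a1 lies inside its annotated gene and is not printed. A match is a description of these letters and not a binding site.

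The type I chains were lower in adult arteries, and their size of change was bounded by the top of the scale. Col1a1 (Entrez Gene 29393) was at 13.82 in all 4 young samples, where it ranked first of 19239 rows, and at 13.28, 13.37, 12.998 and 12.998 in adult replicates 1 to 4, where it ranked 13, 10, 22 and 22. No adult value reached a young value. Its difference was -0.66 ± 0.089, a 1.58-fold lower level (limma adjusted p = 7.79e-04). This fold is limited by the top value, and the error holds no spread of the young samples. Scanner intensities were not used here, so whether the probes were saturated is not known. Col1a2 (Entrez Gene 84352) was at 13.57, 13.54, 13.54 and 13.54 in young samples, at ranks 4 and 5, and at 12.93, 13.07, 12.45 and 12.54 in adult samples, at ranks 19 to 49. The young values are nearly equal because rank sets the value there, and the adult values fall into a higher pair and a lower pair. The difference was -0.80 ± 0.138, or 1.74-fold (limma adjusted p = 0.00264). Its call was lost when adult replicate 1 and young replicate 4 were left out together (-0.86, limma adjusted p = 0.0116).

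Type III collagen differed by more than 2-fold. Col3a1 (Entrez Gene 84032) encodes the chain of a collagen abundant in distensible vessels, and mutations of the human gene cause the vascular form of Ehlers-Danlos syndrome. It was at 12.998, 12.98, 12.93 and 12.91 in young and at 12.00, 12.07, 11.75 and 11.73 in adult samples. The lowest young value stood well above the highest adult value. The difference was -1.07 ± 0.081, or 2.09-fold (limma adjusted p = 4.97e-05). In young samples it ranked 22 to 26, so it lay below the top of the scale on every array.

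Among the type V chains, Col5a1 and Col5a2 had the largest differences of the family. Both are genes of classical Ehlers-Danlos syndrome in humans. Col5a2 (Entrez Gene 85250) was at 10.09, 10.02, 9.81 and 9.85 in young and at 8.71, 8.69, 8.55 and 8.59 in adult samples. The ages were well apart, by more than the whole range within either. Its difference was -1.31 ± 0.072, or 2.47-fold (limma adjusted p = 1.28e-05). Col5a1 (Entrez Gene 85490) was at 10.31, 10.30, 10.03 and 10.25 in young and at 9.17, 9.19, 8.90 and 8.91 in adult samples. Young replicate 3 was the lowest young sample, yet above all adult samples. The difference was -1.18 ± 0.096, or 2.27-fold (limma adjusted p = 6.70e-05). Col5a3 (Entrez Gene 60379), whose chain joins type V molecules of some tissues, was at 7.83, 7.81, 7.71 and 7.84 in young and at 7.46, 7.51, 7.41 and 7.39 in adult samples. All values lay below the upper quartile of the table, 8.07, and the ages did not overlap. The difference was -0.36 ± 0.037, or 1.28-fold (limma adjusted p = 2.13e-04). It became -0.70 when the lowest intensity of the table was subtracted and an offset of 16 added before taking logarithms.

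Among the genes best known from cartilage, Col2a1 and Col11a1 were lower too and Col11a2 was not called. Col2a1 (Entrez Gene 25412), the main cartilage collagen, was at 8.62, 8.48, 8.37 and 8.53 in young and at 7.97, 8.16, 8.00 and 7.92 in adult samples. Adult replicate 2 came nearest to the young samples without reaching them. The difference was -0.49 ± 0.068, or 1.40-fold (limma adjusted p = 9.38e-04), and the call was lost without adult replicate 1 and young replicate 4 (-0.46, limma adjusted p = 0.0108). Col11a1 (Entrez Gene 25654) was at 8.60, 8.56, 8.47 and 8.51 in young and at 8.12, 8.00, 7.91 and 7.82 in adult samples. The adult samples spread more widely than the young ones and stayed below them. The difference was -0.57 ± 0.065, or 1.49-fold (limma adjusted p = 3.49e-04). Col11a2 (Entrez Gene 294279) was at 7.35, 7.34, 7.27 and 7.28 in young and at 7.32, 7.38, 7.30 and 7.31 in adult samples. The ages overlapped at a level close to the median of the table. The difference was 0.02 ± 0.025 (limma adjusted p = 0.616), with a 95% interval from -0.04 to 0.08. Of 10 measured markers of cartilage 1 was lower and 0 higher, with a list mean of 7.10 to 7.14 in adult and 7.13 to 7.16 in young samples, and 7 of the 10 lay below 7.29 on average. The gene called lower was the matrilin Matn1 (-0.08 ± 0.0094, limma adjusted p = 3.64e-04). Matn3 (-0.07 ± 0.019, limma adjusted p = 0.0184) and the proteoglycan Epyc (-0.05 ± 0.012, limma adjusted p = 0.0107) missed the threshold, although their adult values all lay below their young values. That separation was seen in 21.5% of all rows. The ages overlapped in aggrecan (Acan, -0.07 ± 0.062, limma adjusted p = 0.421), whose means lay just above the median of the table, and in the link protein Hapln1 (-0.01 ± 0.010, limma adjusted p = 0.654). They also overlapped in Col9a1 (-0.084 ± 0.027, limma adjusted p = 0.0362), which had the largest difference of these markers, and in Cnmd (-0.005 ± 0.0079, limma adjusted p = 0.645). Snorc (0.02 ± 0.011), Col10a1 (0.03 ± 0.033) and Ucma (0.01 ± 0.013) differed in the other direction, and none of them was called. The part of these markers in the values of Col2a1 and Col11a1 was not tested.

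**Figure D2:**
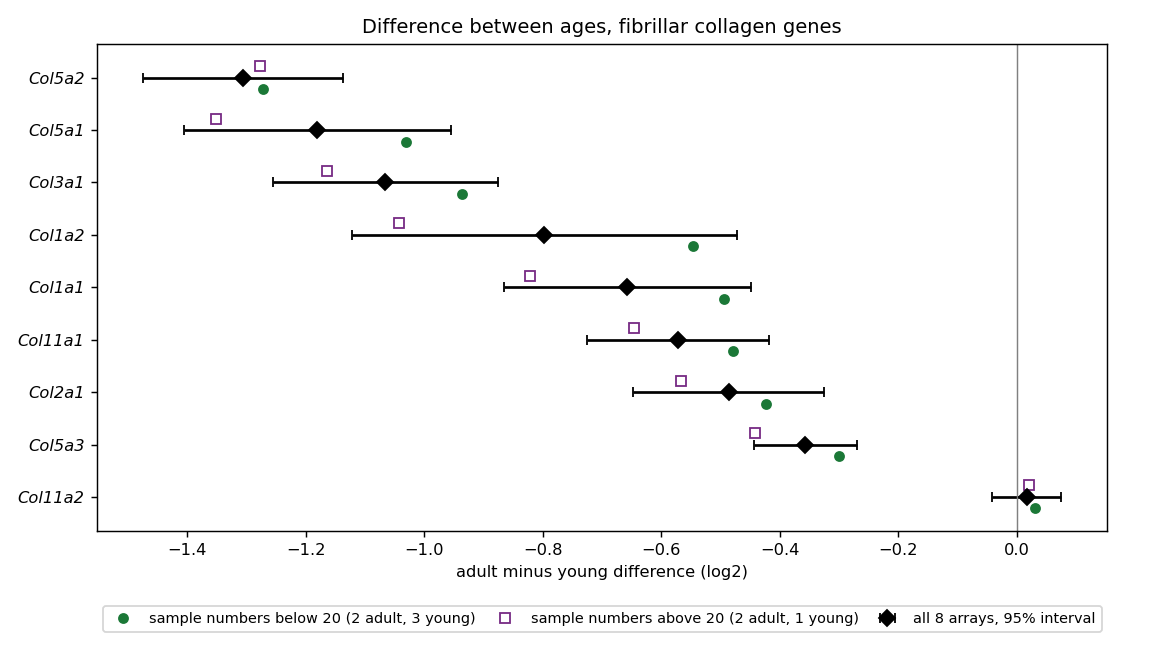
Adult minus young difference of each gene on the log2 scale (horizontal axis) from all 8 arrays with the 95% interval of the limma fit, and the same difference within samples numbered below 20 and above 20. The intervals of all genes but Col11a2 lie below 0, and the samples numbered above 20 give a difference at least as low as those below 20 in each of these 8 genes.

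The adult samples formed an order that most members shared. The labels number the adult samples 17, 18, 26 and 27 (replicates 1 to 4) and the young samples 6, 7, 8 and 22, and do not say what the number stands for. In 8 of the 9 genes adult replicates 1 and 2 were both above replicates 3 and 4, which held for 19.4% of all rows. Col2a1 was the exception, and in 0 of the 9 were both below, against 19.8% of all rows. The gap between the pairs was 0.51 for Col1a2, 0.33 for Col1a1, 0.29 for Col3a1, 0.28 for Col5a1 and 0.13 for Col5a2. Its median over the 9 genes was 0.20. In lists described below it was 0.21 for propeptide removal, 0.18 for crosslinking, 0.13 for secretion and 0.11 for chain modification and folding. The other pathway lists had medians of at most 0.071. Between the same pairs the smooth muscle markers had a median of -0.11, the opposite sign, although not every one of them had it. The markers of fibroblasts had a median of -0.03 and those of endothelium 0.09. Their part in the order was not tested. Within samples numbered below 20 (2 adult, 3 young) the difference between ages was -0.55 for Col1a2, and within those above 20 (2 adult, 1 young) it was -1.04. The corresponding pairs of values were -0.49 and -0.82 for Col1a1, -0.94 and -1.16 for Col3a1, -1.03 and -1.35 for Col5a1, and -1.27 and -1.28 for Col5a2. With this number as a block the same 8 genes were called (limma adjusted p 3.49e-05 to 0.00287 among them), and 14.5% of all rows were called lower.

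Over the 8 arrays, deviations from the mean of each age were positively correlated in all 36 pairs of members. Pearson's r was 0.99 for Col1a1 with Col1a2, 0.97 for Col3a1 with Col1a2 and 0.91 for Col5a3 with Col5a1. It was lowest, 0.46, for Col2a1 with Col11a1. These values describe 8 arrays that share a normalization and the order of the adult samples just given. In young samples Col1a1 did not vary and Col1a2 had an SD of 0.018, so the r of both genes rest mainly on the 4 adult samples.

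The array signals of the chains did not shift by the same amount on the log2 scale. Log2 ratios between 7 pairs of members were compared between ages by an exact permutation test of the 8 samples (two-sided), whose smallest possible p is 0.0286, with Benjamini-Hochberg adjustment over the 7 pairs. A ratio of array signals has no scale of its own, so only its shift between ages is read. The ratio of Col5a3 to Col5a1 was -2.48, -2.49, -2.32 and -2.41 in young and -1.71, -1.68, -1.48 and -1.52 in adult samples. It was higher in 4 of 4 adult samples, by 0.82 ± 0.070 (exact permutation p = 0.0286, adjusted p = 0.0333). The ratio of Col11a1 to Col5a1 was -1.71, -1.74, -1.56 and -1.74 in young and -1.05, -1.19, -0.99 and -1.09 in adult samples. It was likewise higher in every adult sample, by 0.61 ± 0.061 (exact permutation p = 0.0286, adjusted p = 0.0333). Both shifts kept their direction, at the same p, on array ranks and with each array left out in turn, and they were 0.65 and 0.51 after subtraction of the lowest intensity. Col5a3 (means 7.44 in adult and 7.80 in young samples) and Col11a1 (7.96 and 8.53) lay nearer the lowest value than Col5a1 (9.04 and 10.22). Differences are compressed there and no larger background was subtracted, so whether the messenger RNA changed unequally was not tested.

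**Figure D3:**
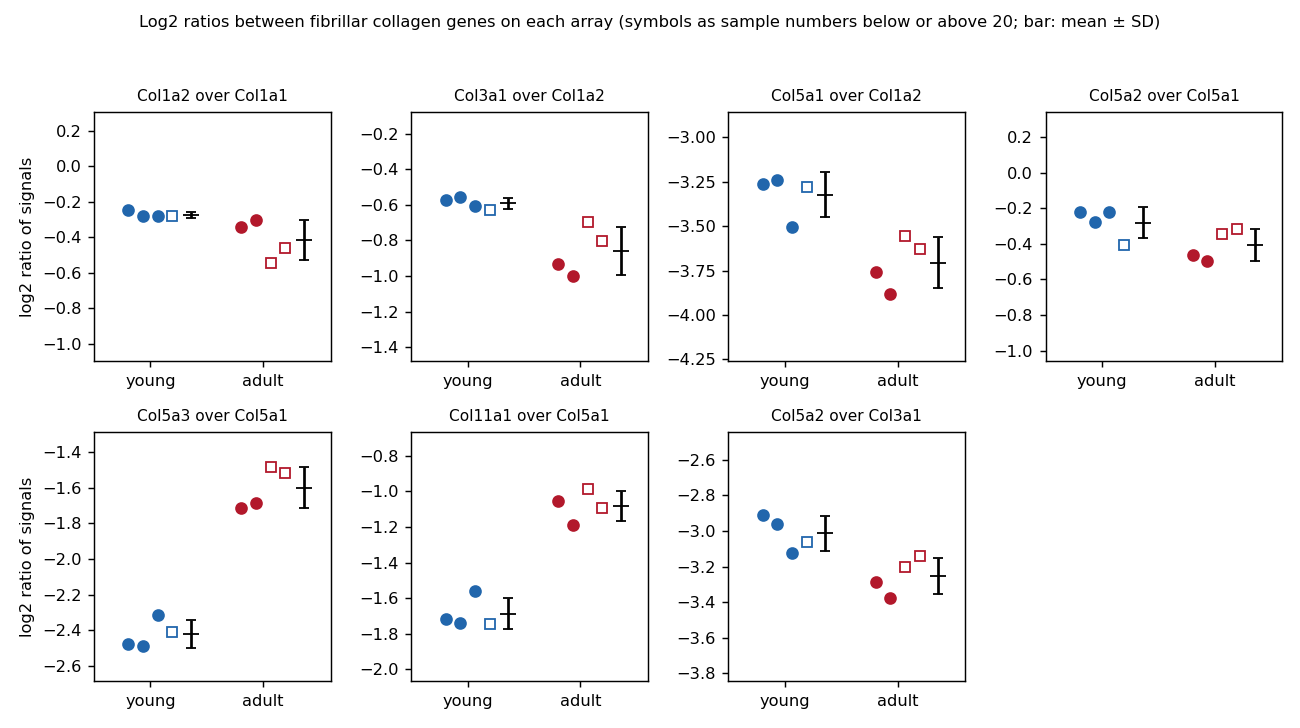
Log2 ratio of the signals of 2 fibrillar collagen genes on each array (vertical axis) in young and adult arteries for the 7 pairs compared, with the mean and SD of each age. The ratios of Col5a3 and of Col11a1 to Col5a1 are higher in all adult samples, and the 2 ages overlap in the ratio of Col5a2 to Col5a1.

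The ratios to type I collagen depended on the scale. Col3a1 over Col1a2 was lower in adult samples by 0.27 on the log2 scale (-0.27 ± 0.070, exact permutation p = 0.0286, adjusted p = 0.0333), and the adult pairs differed, at -0.93 and -1.001 in replicates 1 and 2 and -0.70 and -0.80 in replicates 3 and 4. On normal scores of the array ranks that shift was -0.0018 (exact permutation p = 1). Col5a1 over Col1a2 shifted by -0.38 ± 0.095 (exact permutation p = 0.0286, adjusted p = 0.0333) and by 0.026 on ranks (exact permutation p = 0.486). Col1a2 over Col1a1 shifted by -0.14 ± 0.056 (exact permutation p = 0.0286, adjusted p = 0.0333) and in the opposite direction, by 0.19, on ranks (exact permutation p = 0.0286), with Col1a1 at the top value in every young sample. Col5a2 over Col3a1, genes next to each other on their chromosome with no annotated gene between them, shifted by -0.24 ± 0.071 (exact permutation p = 0.0286, adjusted p = 0.0333) and by -0.078 on ranks (exact permutation p = 0.0571). Col5a2 over Col5a1 overlapped between ages (-0.13 ± 0.062, exact permutation p = 0.114).

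The genes most like the type I and III chains over the 8 arrays were sought by Pearson correlation with the mean of Col1a2 and Col3a1. They were Col1a1 (r = 0.998), Kdelr3 (0.997), a receptor that returns chaperones to the endoplasmic reticulum, Prrc1 (0.995), the fatty acid elongase Elovl5 (0.994) and the orphan receptor Gpr153 (0.994). Their deviations from the mean of each age, taken over all 8 arrays together, correlated with those of that reference at 0.99, 0.97, 0.98, 0.97 and 0.95. Kdelr3 was at 10.94, 10.94, 11.05 and 10.96 in young and at 9.51, 9.66, 8.94 and 9.05 in adult samples, with the same higher and lower adult pairs as Col1a2. Its difference was -1.68 ± 0.162 (limma adjusted p = 1.55e-04). Age and the order of the adult samples are part of these correlations. In young samples Col1a2 and Col3a1 had SDs of 0.018 and 0.042, against 0.30 and 0.17 in adult samples. The correlations of deviations of all 5 genes therefore rest mainly on the 4 adult samples. Col1a1 was at the top value in every young sample and did not vary there.

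The other collagens and the genes that make, modify, bind and break down fibrils were described by role. Of 121 measured genes in these lists, 65 were lower, 18 higher and 38 not called. Over all rows 16.01% were lower and 16.7% higher, and no list count here or below was tested against these shares. Among the other fibrillar collagens Col27a1 was lower (-0.23 ± 0.038) and Col24a1 differed by 0.01 ± 0.018 (limma adjusted p = 0.77). The call of Col27a1 was lost with ribosomal protein centring (-0.17, limma adjusted p = 0.196) and without adult replicate 1 and young replicate 4 (-0.21, limma adjusted p = 0.0192), and its difference was -0.49 after subtraction of the lowest intensity. Of 13 fibril-associated and type VI collagens 8 were lower and 1 higher, with a median of -0.66, close to that of the fibrillar genes. Col14a1 (-1.53 ± 0.063) and Col12a1 (-1.42 ± 0.118), which lie on the surface of type I fibrils, were lowest, and Col19a1 (0.26 ± 0.022) was the one that rose. Of 11 basement membrane and short-chain collagens 3 were lower and 1 higher, with a median of 0.01, where 32.7% of all rows were called in either direction. Col4a2 (-0.96 ± 0.015) and Col4a1 (-0.65 ± 0.059), the chains of the common basement membrane network, fell and Col18a1 (0.38 ± 0.049) rose. The difference between these lists and the fibrillar genes was not tested.

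The enzymes and chaperones of procollagen followed mostly the same direction. Of 17 genes of chain modification and folding 14 were lower and 2 higher, with a median of -0.74. The chaperone and lysyl hydroxylase partner Fkbp10 (-1.09 ± 0.090) and the prolyl 3-hydroxylase family member P3h3 (-1.05 ± 0.043) were lowest. P3h2 (1.27 ± 0.151), a prolyl 3-hydroxylase known for type IV collagen, and the lysyl hydroxylase Plod2 (0.37 ± 0.082) were higher, the latter with a call that was lost in 6 of the 8 fits without 1 array, all but those without adult replicate 1 or young replicate 2. The collagen chaperone Serpinh1 (Hsp47) was lower by less than these (-0.36 ± 0.076, limma adjusted p = 0.00692), and its call was also lost in 6 of these fits, all but those without adult replicate 2 or young replicate 4. All 7 measured genes of propeptide removal were lower, with a median of -0.79, among them the C-proteinase Bmp1 (-1.49 ± 0.078), its enhancer Pcolce (-1.81 ± 0.142) and the N-proteinase Adamts2 (-0.86 ± 0.110). Of these 7, 3 lay below the median of the table on average, with small differences of -0.14, -0.19 and -0.05. Of 5 lysyl oxidases, the crosslinking enzymes, 3 were lower, Lox (-1.25 ± 0.114) and Loxl1 (-1.05 ± 0.051) most. Of 10 secretion genes 5 were lower, including the transcription factor Creb3l1 (-1.19 ± 0.096), which drives secretion of bone collagen in mice, and the coat subunit Sec24d (-1.11 ± 0.106), and 2 were higher, Trappc2 (0.61 ± 0.036) and Sar1b (0.59 ± 0.046).

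**Figure D4:**
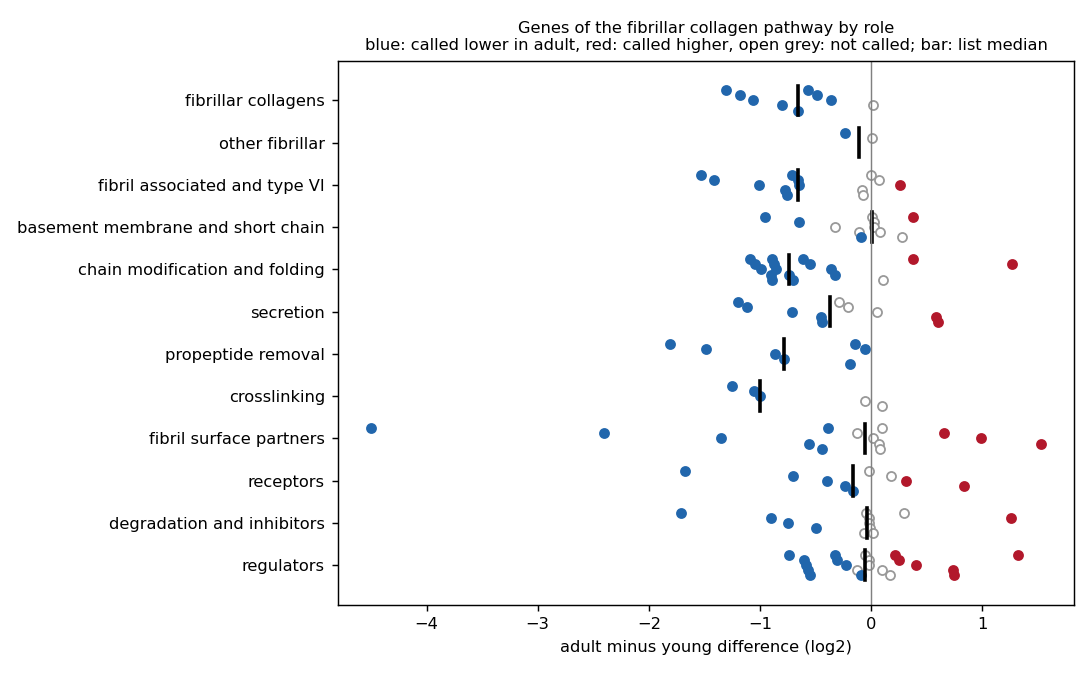
Adult minus young difference on the log2 scale (horizontal axis) of every measured gene of the fibrillar collagen pathway, 1 row per role, with the list median as a bar and colour for the limma call. All 7 genes of propeptide removal are lower in adult arteries, 3 of them at levels below the median of the table on average. Fibril surface partners, receptors and regulators hold genes called in both directions.

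Genes that bind fibrils went both ways. Of 14 fibril surface partners 6 were lower and 3 higher. Postn (-4.50 ± 0.132) and Thbs2 (-2.40 ± 0.100), matricellular proteins that affect fibril assembly, were lowest, and the small leucine-rich proteoglycans Fmod (1.53 ± 0.127) and Omd (0.99 ± 0.053) highest. Decorin (Dcn), which coats fibrils, differed by 0.10 ± 0.037 (limma adjusted p = 0.0591) and Sparc, a collagen-binding protein, by -0.44 ± 0.091 (limma adjusted p = 0.0058), a call that was lost in 7 of the 8 fits without 1 array, all but that without adult replicate 1. Of 9 receptors 5 were lower and 2 higher. The collagen uptake receptor Mrc2 (-1.67 ± 0.077), the fibroblast collagen integrin Itga11 (-0.70 ± 0.096) and the receptor kinase Ddr2 (-0.40 ± 0.037) fell, and Itga1 (0.84 ± 0.106) with its partner Itgb1 (0.31 ± 0.057) rose. Without adult replicate 2 or 3, the call of Itgb1 was lost (limma adjusted p = 0.0101 and 0.0117).

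Of 12 genes of collagen breakdown and its inhibitors 4 were lower and 1 higher, where 32.7% of all rows were called in either direction. The membrane-bound collagenase Mmp14 (-1.71 ± 0.053) and the gelatinase Mmp2 (-0.90 ± 0.159), which Mmp14 activates, fell, while the inhibitor Timp4 rose (1.26 ± 0.088). The call of Mmp2 was lost without young replicate 1 (limma adjusted p = 0.0103). Timp1 differed by -0.02 ± 0.058 (limma adjusted p = 0.81). Of 21 regulators of collagen genes 9 were lower and 6 higher. Ccn2 (1.32 ± 0.124) and Tgfb3 (0.74 ± 0.103), both linked to higher collagen synthesis, rose, and Tgfb2 (-0.73 ± 0.079) and Tgfbr2 (-0.61 ± 0.058) fell. Tgfb1 differed by -0.12 ± 0.066 (limma adjusted p = 0.178), its signal carrier Smad3 by -0.09 ± 0.013 (limma adjusted p = 0.00139) and Larp6, which binds collagen messenger RNA, by 0.25 ± 0.038 (limma adjusted p = 0.00127). With ribosomal protein centring Smad3 lost its call (-0.025, limma adjusted p = 0.847).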

How the data were processed

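The authors hybridised total RNA of 8 artery samples to Affymetrix Rat Gene 1.0 arrays, annotated them with a custom chip definition file (version 14, 1 probe set per Entrez gene) and applied quantile normalization. The deposited values are log2 expression from RMA. Its version and background correction are not given in the sources used here, and the table held no column beyond those of the 8 samples. The methods and the labels name different RNA extraction kits.

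Gene symbols came from the platform annotation (16592 of 19239 rows listed, 2647 unnamed here) and were updated through Entrez identifiers where the current entry matched (16427 rows). Groups came from the sample labels. A linear model of age alone was fitted to every row (limma 3.58.1, R 4.3.3) with moderated two-sided tests and Benjamini-Hochberg adjustment at 0.01, and the code was tested on simulated data. Member ratios were compared by exact permutation.

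The members and lists were chosen with earlier results of these data known. Genes named were the 9 members, the 2 highest and 2 lowest called genes of each list, 18 genes of known role and the 5 genes most like the mean of Col1a2 and Col3a1. Markers chosen after their values were seen were Acan, Hapln1, Matn1, Matn3, Epyc, Snorc, Col10a1, Ucma, Col9a1 and Cnmd. Alternatives were the methods' test, trend and robust variances, array weights, second quantile normalization, median or ribosomal protein centring, background subtraction with an offset of 16, removal of the dimmest 25% of rows, both blocks, arrays left out, a threshold of 0.05, a minimum fold of 1.5 and, for ratios, array ranks.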

Additional observations from a re-analysis of the deposited data

Results flagged for a closer look

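Among 117 groups of 4 samples, 11 held a sample far from the other 3 relative to the range of the 4. Chance gives about 1 in 20 for independent values without ties. The groups share genes and arrays, so the count was not tested against that rate. The flag of Col1a2 is a step from rank 5 to rank 4, since its other 3 young values are equal. In young samples these were replicate 1 for Col1a2 (13.57, the nearest at 13.54) and, through it, for Col1a2 over Col1a1 (-0.25, nearest -0.28); replicate 3 for Col5a1 over Col1a2 (-3.51, nearest -3.28) and for Col11a1 over Col5a1 (-1.56, nearest -1.71); replicate 1 for Sar1b (8.79, nearest 8.93); and replicate 4 for Itga1 (10.55, nearest 10.83) and Ccn2 (10.52, nearest 10.29). In adult samples they were replicate 1 for P3h3 (9.82, nearest 9.70), replicate 2 for Col27a1 (7.43, nearest 7.36) and replicate 3 for Trappc2 (8.25, nearest 8.35) and Fmod (10.22, nearest 10.38).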

How the results depend on the processing

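All 8 calls of lower members and their direction held with the methods' test, trend and robust variances, array weights, second quantile normalization, median and ribosomal protein centring, background subtraction, removal of the dimmest 25% of rows, the sample number as a block, an adjusted p below 0.05 and each array left out in turn (8 called lower and 0 higher in each fit). With the replicate number as a block Col1a2 lost its call (-0.80, limma adjusted p = 0.0113). Among the named genes Mmp2, Tgfb3, Smad3, Larp6 and Sparc also lost theirs, and 2217 rows were lower and 2191 higher. Over all rows the deviations of samples of the same number were nearly uncorrelated (-0.08 to 0.04), which cannot exclude a pairing that affects part of the genes. Without adult replicate 1 and young replicate 4, a pair chosen with earlier results known, Col1a2 (-0.86) and Col2a1 (-0.46) lost their calls. A fold of at least 1.5 left 5 members, without Col2a1 (-0.49), Col5a3 (-0.36) and Col11a1 (-0.57), and 41 lower and 11 higher of the other pathway genes. Among all rows 3080 were lower and 3216 higher, 711 and 716 with that fold; with ribosomal protein centring (28 genes), which gave every row the same error, 1589 were lower and 2435 higher, so that the share of calls that were higher went from 51.1% to 60.5%. Subtraction of the lowest intensity moved Col19a1 to 0.60, Trappc2 to 0.96, Larp6 to 0.65 and Smad3 to -0.20. The methods' test ended the calls of Plod2, Serpinh1 and Sparc.

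On normal scores of array ranks the shift of Col1a2 over Col1a1 was 0.19, of Col5a1 over Col1a2 0.026, of Col3a1 over Col1a2 -0.0018, of Col5a2 over Col3a1 -0.078 and of Col5a2 over Col5a1 -0.11, the last now at the smallest p; the cause was not tested beyond the rank positions given. With 1 array left out the shifts ranged from -0.18 to -0.10 for Col1a2 over Col1a1, -0.32 to -0.22 for Col3a1 over Col1a2, -0.45 to -0.33 for Col5a1 over Col1a2 and -0.28 to -0.20 for Col5a2 over Col3a1, with exact permutation p up to 0.0857, 0.0571, 0.0571 and 0.0571. The p passed 0.05 without any young replicate for the first and second, without adult replicate 1, 2 or 4 for the third, and without any replicate but adult 4 or young 3 for the last. The top value of the table limits the size of change of Col1a1, and Col5a3 lay nearer the lowest value, where differences are compressed. Whether Col11a2 stood above background was not tested.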

Other observations

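Among the bone markers read beside the collagens, Dmp1, which encodes an acidic matrix protein of bone and dentin, was at 7.77, 7.61, 7.69 and 7.65 in young and at 8.76, 9.57, 9.58 and 9.46 in adult arteries (1.66 ± 0.182, limma adjusted p = 2.81e-04). Adult replicate 1 was the lowest adult sample. None of the other 5 bone markers was called (1 of 6 in all), and 4 of the 6 lay below the table's median on average. The gene was picked after its values were seen.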
